A study of Mus musculus with 4 samples.

Results

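OTX2 binding was examined at 8 genes that mark the visceral endoderm: Ttr, Afp, Amn, Apoa1, Apoe, Cubn, Dab2 and Sparc. A region was given to one of them when its midpoint lay inside the gene's span (the shortest gene if several), or else when that gene had the nearest end of any protein-coding gene within 100 kb. By this rule 17 of the 39615 regions in 4 lists belonged to the 8 genes, out of 21887 protein-coding genes that could take a region. The libraries described here come from CUT&RUN, in which an antibody tethers a nuclease to a chromatin protein and the released DNA is sequenced. The antibody was against an HA tag on OTX2, a homeodomain factor of the early epiblast and the anterior embryo, in BL6/129 hybrid cell lines labelled OTX2-dTAG-EGFP (dTAG is a tag that allows a protein to be degraded by a small molecule; no such treatment is given in the labels). Primitive streak (PS) cells had 16 h of 40 ng/ml Activin A with 3 uM CHIR, an activator of WNT signalling. Definitive endoderm (DE) cells had a further 24 h of 100 ng/ml Activin A with 100 nM LDN, an inhibitor of BMP receptors. The 4 libraries described here are all from PS cells. The anti-HA antibody was used in 3 of them, 1 each of the lines 7H, 7H1 and 7H2, and control IgG in 1, of 7H2. Whether these line names stand for independent edits is not stated in the labels. No DE library is among the 4, and the list names give stages and no sample. The libraries, lines and controls behind the DE calls are therefore not described here.

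The lists name the stages that share each region: PS only (1634 regions), PS and DE (6157), DE only (31445), and EPI and PS (379), where EPI is not spelled out in the list name. They hold positions only, with no height and no value for any single library, so depth per library is unknown, replicates could not be compared, and none of the counts below has a replicate error or a test. No list is for EPI alone, for EPI and DE, or for all 3 stages. Regions of those classes, if any were called, are not counted here. Regions state where OTX2 was called, not whether a gene was expressed, so the standing of the 8 genes as markers could not be checked in these cells.

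The visceral endoderm is the epithelium that covers the epiblast before gastrulation. It takes up maternal proteins and lipids and secretes serum proteins, which is why many of its markers are later liver and yolk sac genes. Definitive endoderm arises separately from the epiblast through the streak, and both tissues share several transcription factors and express some of the same genes. Of the 8 genes, Ttr, Afp, Apoa1 and Apoe encode secreted carriers, Cubn, Amn and Dab2 encode parts of the apical uptake machinery, and Sparc encodes a secreted protein that binds matrix and collagen.

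Sequence is shown for Apoe, the gene with a region directly before one of its starts. Apoe lies on the minus strand of chromosome 7 (19696244 to 19701310, GRCm38, which is mm10), and the RefSeq promoter table lists 3 starts for it. A DE only region of 63 bp at chr7:19699216-19699278 lay from 90 to 28 bases before the start at 19699188. This region was among the narrowest of its list, since 98.9% of DE only regions were at least as wide. It holds 1 copy of TAATCC, the core sequence recognised by OTX2 and related homeodomains, on the opposite strand (GGATTA), at 80 to 75 bases before that start. The first line is the region with this hexamer in capitals, and the second is the 250 bases before the start (chr7:19699189-19699438) with the region in capitals; both are read 5′ to 3′ on the gene's strand.
Apoe region: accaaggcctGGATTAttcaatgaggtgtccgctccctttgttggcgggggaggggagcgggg
Apoe promoter: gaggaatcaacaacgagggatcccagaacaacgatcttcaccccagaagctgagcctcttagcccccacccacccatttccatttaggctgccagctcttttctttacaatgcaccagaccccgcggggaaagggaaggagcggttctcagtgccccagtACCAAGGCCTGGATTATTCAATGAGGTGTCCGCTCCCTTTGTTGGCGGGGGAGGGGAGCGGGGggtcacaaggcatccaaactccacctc

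Most OTX2 regions at these genes were of the DE only list, as were most regions assigned to any gene. The 8 genes held 15 DE only regions. Cubn had the 1 region shared by PS and DE, Sparc had the 1 PS only region, and 0 came from the EPI and PS list. DE only regions thus made up 88.2% of the 17, beside 79.4% of all 34616 assigned regions. At least 1 DE only region was found at 7 of the 8 genes, all but Amn, against 50.1% of all protein-coding genes. At least 1 PS and DE region was found at 1 of the 8, against 16.3% of all genes. At least 1 PS only region was found at 1 of the 8, against 5.60%, and an EPI and PS region at 0 of the 8, against 1.45%. With 8 genes, 1 gene more or less moves each of these counts by much, and the counts at PS stages are too small to be read against their background.

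**Figure D1:**
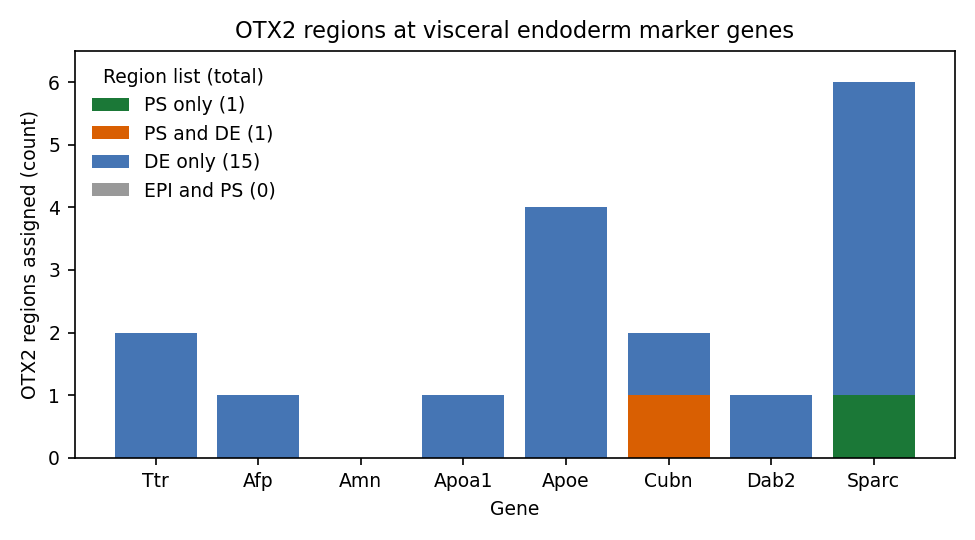
Stacked bars give the number of OTX2 regions assigned to each gene (y axis, count), coloured by region list, with the total of each list over the 8 genes in the legend. Sparc holds 6 regions and Apoe 4, Amn holds 0, and only Sparc and Cubn have a region from a list that includes PS.

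The 4 genes of secreted carriers held 8 regions, of which 4 were at Apoe. All 8 were DE only, a share to be read beside the 79.4% of all assigned regions that are. Apoe, which encodes a lipid carrier of plasma lipoproteins, held its 4 within 6.02 kb. Beside the region printed above, one of 119 bp lay at 19698425 to 19698543, from 145 to 27 bases before the start at 19698398, and holds 0 copies of TAATCC. One of 103 bp lay at 19701181 to 19701283, with its midpoint 78 bp inside the outer end of the gene, and the 3′ end of Tomm40, a mitochondrial import gene, lies 3 bp further on. Its midpoint was 81 bp from Tomm40, so both genes are about equally near. The widest of the 4, 267 bp at 19695268 to 19695534, lay 0.843 kb past the 3′ end of Apoe and 2742 bp from the nearest end of Apoc1. Regions thus stood at both ends of Apoe and before 2 of its 3 listed starts.

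Ttr encodes transthyretin, a carrier of thyroid hormone and of retinol with its binding protein, and held 2 DE only regions. Ttr lies on chromosome 18 (20664209 to 20674326), and its strand is not in the tables used here. The nearer region, 147 bp at 20662736 to 20662882, was 1.40 kb outside the gene, and the other, 235 bp at 20648906 to 20649140, was 15.2 kb outside it on the same side. Both lie in the span of Gm16090, a long noncoding RNA gene that also reaches into Ttr, and both go to Gm16090 when genes of all kinds can take regions.

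Afp encodes alpha-fetoprotein, the fetal serum protein of yolk sac and liver. It lies on the plus strand of chromosome 5 (90490714 to 90508907) and held 1 DE only region, 250 bp at 90488364 to 90488613, centred 2.23 kb before its start. This was among the wider regions, since 7.96% of DE only regions were at least as wide. The nearest other region of any list was 145 kb away, so the region stood alone in these lists.

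Apoa1 encodes the main protein of high-density lipoprotein. It is a short gene on the plus strand of chromosome 9 (46228630 to 46230469), and its 1 DE only region, 95 bp at 46230042 to 46230136, lay inside it, 1.46 kb past the start and 0.380 kb before the 3′ end. Apoa1 sits in a cluster of apolipoprotein genes, and the next DE only regions were assigned to its neighbours. One of 183 bp, 5.38 kb from Apoa1, went to Apoc3, and one of 146 bp, 11.6 kb from it, lay inside Apoa4. A PS and DE region of 78 bp lay 11.5 kb before the Apoa1 start, inside Sik3, a kinase gene. The region closest to Apoa1 that was bound in PS was therefore given to another gene.

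Of the uptake genes, Cubn held 2 regions, Dab2 held 1 and Amn held 0. Cubn encodes cubilin, a large peripheral membrane receptor, and Amn encodes amnionless, the membrane partner that cubilin needs to reach the cell surface. Cubn (minus strand of chromosome 2, 13276338 to 13491876) held 1 DE only region, 97 bp at 13489610 to 13489706, which lay 2.22 kb past its start. It also held the only PS and DE region of the 8 genes, 98 bp at 13371629 to 13371726, which lay 120 kb past the start, deep inside the gene. The 2 Cubn regions were 118 kb apart, and both were narrower than the median of their list (119 bp for DE only and 123 bp for PS and DE).

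Amn (plus strand of chromosome 12, 111271096 to 111276426) held 0 regions of any list. The only regions within 100 kb of it were 3 DE only regions inside Cdc42bpb, a kinase gene, at 61.6, 75.8 and 96.9 kb from Amn. Dab2, an adaptor that links such receptors to clathrin, lies on the plus strand of chromosome 15 (6299788 to 6440715). It held 1 DE only region, 134 bp at 6260107 to 6260240, which lay 39.6 kb before its outermost start. No region of any list lay inside the 141 kb of Dab2, and the next region was 327 kb from the one it held.

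Sparc held the most regions, 5 DE only and 1 PS only, and was the only one of the 8 genes with a PS only region. It lies on the minus strand of chromosome 11 (55394159 to 55420080). The PS only region, 92 bp at 55419853 to 55419944, was centred 0.182 kb past the start. A DE only region of 125 bp followed at 55418216 to 55418340, 1.80 kb past the start, with 1513 bp between the edges of the 2 regions. A region called in PS and not DE thus lay beside one called in DE and not PS, close to the same start.

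The other 4 DE only regions of Sparc lay past its 3′ end, in a stretch of 15.0 kb. They were centred 4.17, 7.48, 10.4 and 19.0 kb beyond the gene, with no protein-coding gene nearer. The one at 10.4 kb, 373 bp at 55383544 to 55383916, was the widest region of the 8 genes, and 1.14% of DE only regions were at least as wide. It lies in the span of the long noncoding RNA gene Gm31842. When genes of all kinds can take regions, Sparc has 2 DE only regions in place of 5 and keeps the count of 1 PS only region.

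**Figure D2:**
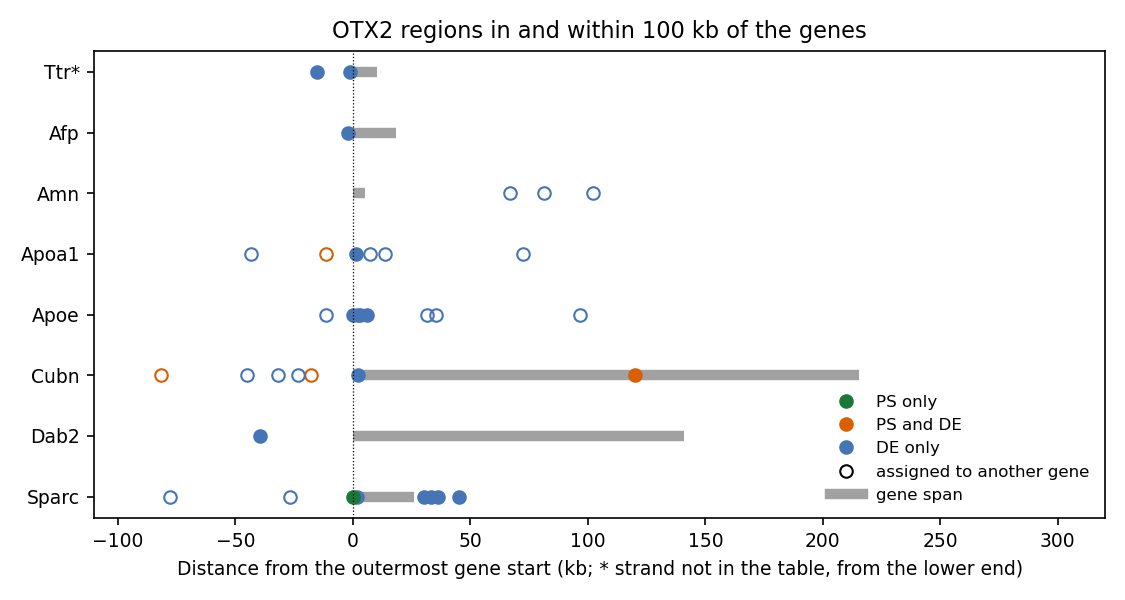
Each row is a gene, drawn from the upstream end of its span (0, dotted line) along the direction of transcription. For Apoe this end, labelled as the outermost gene start, is not a listed start. The x axis is distance in kb and the grey bar is the gene span. Filled points are regions assigned to the gene and open points are regions within 100 kb assigned to another gene, coloured by list. The row of Ttr is drawn from its lower coordinate because its strand is not in the tables. Apoe and Sparc show close groups of DE only regions, and no region of these lists lies inside Dab2.

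Long genes and genes far from others can take more regions, so the counts were set beside the stretch of genome that the rule gives to each gene, its territory. DE only regions fell at 1.44 per 100 kb over all gene territories. The 8 genes together have 638 kb, which at that rate would hold 9.19 DE only regions, and 15 were found (1.63 times). Apoe has only 6.86 kb, which would hold 0.0987, and held 4 (40.5 times). A rate at least as high was found for 0.0731% of protein-coding genes. Apoa1 has 5.35 kb and its 1 region was 13.0 times the mean rate, a ratio that rests on a single region. Sparc (67.5 kb) held 5.15 times, Ttr (45.1 kb) 3.08 times and Afp (30.3 kb) 2.30 times the mean rate. Dab2 (243 kb) and Cubn (224 kb) lay below it, at 0.286 and 0.310 times, and Amn (15.6 kb), with 0 regions, would hold 0.224. By number of regions, 9.68% of genes had at least as many DE only regions as Apoe and 6.57% at least as many as Sparc. The order of the genes therefore depends on the scale: Sparc leads by number, and Apoe and Apoa1 lead by territory.

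**Figure D3:**
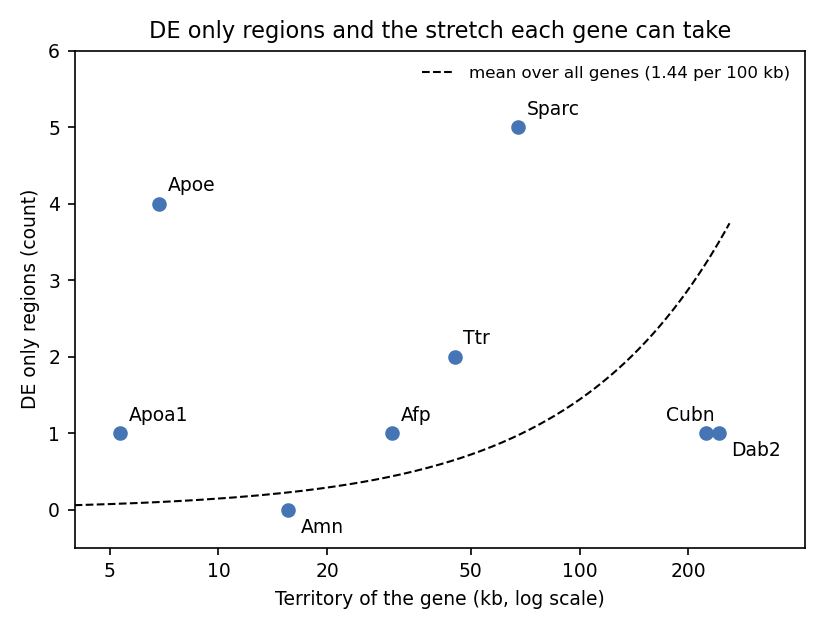
Each point is a gene, with the length of its territory (x axis, kb, log scale) and its number of DE only regions (y axis, count); the dashed line is the mean rate over all genes, 1.44 per 100 kb. Apoe, Sparc, Ttr, Apoa1 and Afp lie above the line, and Cubn, Dab2 and Amn lie below it.

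The distance of DE only regions from gene ends depends on how long the genes are. A midpoint within 1 kb of an end of the assigned gene was found for 3 of the 15 DE only regions, which is 20.0% (95% Wilson interval 7.05 to 45.2, counting error only), beside 15.9% of all assigned DE only regions. These were 2 regions at Apoe and 1 at Apoa1, so 2 of the 8 genes had such a region, against 18.2% of all protein-coding genes. Apoa1 spans only 1.84 kb, so any region inside it counts here. Within 2.5 kb the count was 9 of 15, or 60.0% (35.7 to 80.2), beside 22.8% of all assigned DE only regions, since regions at Ttr, Afp, Cubn, Sparc and 2 more at Apoe lay between 1 and 2.5 kb from an end. The 9 regions came from 6 genes, and 4 of them from Apoe alone, so they are not independent. The same holds for the 15 regions, with 5 at Sparc and 4 at Apoe, whereas both intervals treat regions as independent. Apoe spans 5.07 kb and has a territory of 6.86 kb, and Apoa1 has one of 5.35 kb, so nearly any region assigned to them lies within 2.5 kb of an end, and 5 of the 9 were set by gene size. The regions at Ttr, Afp, Cubn and Sparc lie in territories of 45.1, 30.3, 224 and 67.5 kb. A comparison with genes of like length was not made. The difference from all genes, of any length, therefore cannot be read as a trait of these genes. Of the 15 regions 6 lay inside their gene, beside 54.4% of all assigned DE only regions. Their widths ran from 63 to 373 bp with a median of 134 bp, beside 119 bp for the list, and 10 of the 15 were wider than that.

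**Figure D4:**
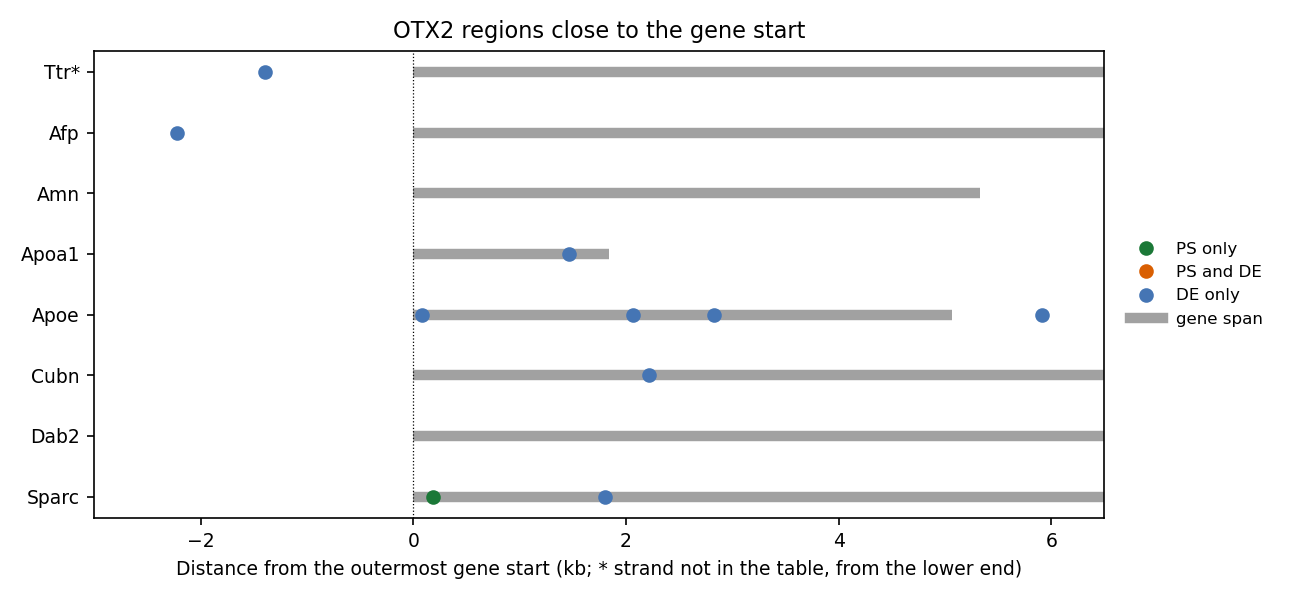
The same rows as in the map of all regions, from 3 kb before to 6.5 kb past the upstream end of the span (x axis, kb), with assigned regions only. For Apoe this end is not a listed start. The PS only region of Sparc lies 0.182 kb and the DE only region of Cubn 2.22 kb past the start, and 4 DE only regions fall across and just past Apoe.

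The rule leaves out regions that lie near one of the 8 genes but nearer to, or inside, another. There were 19 such regions within 100 kb, 16 DE only and 3 PS and DE. Around Cubn, 2 PS and DE and 3 DE only regions lay upstream, 4 of them inside Trdmt1, a methyltransferase gene, from 17.9 to 45.1 kb away, and 1 PS and DE region assigned to Vim, an intermediate filament gene, 81.8 kb away. Around Apoe, 4 DE only regions went to Tomm40, Apoc2, Clptm1 and Clasrp, the closest 11.3 kb away in Tomm40. Around Sparc, 2 DE only regions went to Atox1, a copper chaperone gene, and G3bp1, at 26.8 and 77.7 kb. Beside those already named, Apoa1 had 2 more, both DE only: 1 inside Sik3 at 43.2 kb and 1 inside 4931429L15Rik at 70.6 kb. Ttr, Afp and Dab2 had none.

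Promoter sequence was in the RefSeq table for 7 of the 8 genes (all but Ttr), in 10 windows of 300 bases, from 250 before to 50 after a start. Searched on both strands, TAATCC was in 1 of the 10 windows, that of Apoe, and in 7.06% of all 32851 windows. A stretch of 63 bases at the same place held it in 1.47% of windows, and of 2003 DE only regions that lie whole in a window, 4.09% held it. With TAATCT also accepted, Afp joined Apoe (14.4% of all windows). The Afp copy lies 218 to 213 bases before the start, outside every region, and is shown in capitals with its flanks.
Afp promoter stretch: tcaggggaaaTAATCTatttgaacag
The sequence AGATAA, recognised by GATA factors, was in 1 window, of Dab2 (11.2% of all windows), and the forkhead sequence TGTTTAC in 1 window of Apoe, across the start at 19698398 (3.65%). Neither copy lay in a region. A DE only region overlapped a window at 1 of the 7 genes, Apoe, beside 15.9% of 17492 protein-coding genes with a window. A match says only that the letters are present, and the remaining regions lie outside these windows and were not searched.

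Other genes of extraembryonic endoderm give the setting. Of 16 further visceral endoderm genes, 7 had a DE only region and 1 a PS and DE region, with 12 and 1 regions in all. Among all protein-coding genes the shares were 50.1% and 16.3%, and these apply to each list of genes below. Apob, the core protein of large lipoproteins, held 3 DE only and 1 PS and DE region, Slc2a2, a glucose transporter, held 3 DE only, Ctsh, a lysosomal protease, held 2 DE only, and Lrp2, the megalin receptor that works with cubilin, held 1 DE only and 1 EPI and PS region. Rbp4, the retinol binding protein that pairs with transthyretin, held 0. The median was 0 DE only regions per gene, against 1.00 for the 8 genes and 1.00 for all protein-coding genes.

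Genes of the parietal endoderm, the other extraembryonic layer, showed 34 DE only regions at 8 of 10 genes, with 10 at Lamc1 and 7 at Lamb1, both laminin chains, 8 at Pdgfra, a growth factor receptor, and 3 at Col4a1, a basement membrane collagen. They held 2 PS and DE regions, both at Pdgfra, and 1 PS only region, at Lamb1. Genes of the anterior visceral endoderm, which are also expressed in anterior streak derivatives, held regions bound in both stages as well: all 9 had a PS and DE region (21 in all), beside 1 of the 8 genes described above. Lhx1 held 6 and Sfrp1 held 4 of these, with 7 and 8 DE only regions, Otx2 held 1 and 10, and Dkk1 held 1 and 9. At least 1 DE only region was found at 7 of the 9 genes (40 in all). Of 6 endoderm transcription factor genes, 5 had a PS and DE region (15 in all), with 6 at Foxa2, 3 at Gata6 and 2 at Gata4, and all 6 had DE only regions. These differences between lists of genes were not tested. The counts were not set beside the territories of the genes in these lists, so part of a difference may lie in territory.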

How the data were processed

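The authors deposited 4 lists of regions (chromosome, start, end; no header), per the file contents with no height or value per library. Per the submitters' processing notes, the build was mm10 and the tools were MACS2 2.2.6, Bowtie2 2.3.5.1, bedtools 2.30, Picard 2.26.10 and SAMtools 1.14. Their roles and settings, the peak threshold, the use of IgG and the pooling of replicates were not given in the sources used here. Starts were converted to count from 1. Genes were the 21887 protein-coding genes placed on chromosomes in a RefSeq table of GRCm38.p6; all 8 symbols matched. That table gives spans and no exons. Strand, starts and sequence came from the RefSeq promoter table of the same build, which holds 7 of the 8 genes. A promoter window counted as overlapped at 1 shared base. Counts were made with Python 3.11.15 (SciPy 1.17.1). The assignment was tested on simulated positions against a direct search. The genes named are the 8 members, up to 4 genes with the most regions in each list of other genes (ties by symbol), and the genes that took nearby regions. One gene that this rule names is not reported here. Rbp4, Apoc1, Gm16090, Gm31842 and the further apolipoprotein genes fall outside this rule and were named after their values were seen. Members and lists were chosen with earlier results of these data known.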

Additional observations from a re-analysis of the deposited data

How the results depend on the processing

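The 4 region counts and the 4 counts of genes with a region, over the 8 genes, were repeated under 9 other ways to form or assign regions; other counts were not. They moved by at most 1.5 times when regions within 500 bp were merged, when any base replaced the midpoint, when assignment reached 50 kb or 1 Mb, when spans were not used, and when all genes of the table could take regions, although in the last setting Ttr fell to 0 regions. Among regions of at least 150 bp, 4 DE only regions remained, at 4 genes (Ttr, Afp, Apoe and Sparc), with 0 PS only and 0 PS and DE regions, at 0 genes each. Keeping only regions that reached the median width of their list left likewise 0 PS only and 0 PS and DE regions, at 0 genes, since both regions are narrow. Counting every region within 100 kb gave 31 DE only regions, and 4 PS and DE regions at 2 genes. The share of DE only regions near a gene end was 20.0% with a window of 1 kb, beside 15.9% of all assigned DE only regions. With a window of 2.5 kb it was 60.0%, beside 22.8%. Gene size set part of the second count, and genes of like length were not compared. That difference therefore cannot be read as a trait of these genes. With TAATCT accepted, 2 genes had the OTX2 sequence in a promoter window. No paired analysis was possible because the lists carry no value per library, and for the same reason no replicate could be left out. Depth per library is unknown, and some combinations of stages have no list. A gene without a region, such as Amn, is thus one with none in these lists, not one shown to be unbound.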

Other observations

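Apoa1 and Apoe are part of a wider set, and the 15 genes of the apolipoprotein names Apoa to Apof, Apoh, Apom and Apon were counted after the values of the 2 genes had been seen. They held 16 DE only regions at 9 genes, beside 50.1% of all protein-coding genes with such a region, and also 2 PS and DE regions, 0 PS only and 0 EPI and PS regions. Apob, of large lipoproteins, and Apod, a lipocalin, held 3 DE only regions and 1 PS and DE region each, and Apoe held 4 DE only. Single DE only regions were at Apoa1, Apoa4, Apoc2, Apoc3, Apof and Apoh. Apoa2, Apoa5, Apoc1, Apoc4, Apom and Apon held 0 regions of any list. A DE only region within 1 kb of an end was found at Apoa1, Apoc3, Apoe and Apof, beside 18.2% of all protein-coding genes. The genes of a cluster share neighbouring territory, so they are not independent, and no test was run.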
